A study of Mus musculus with 10 samples.

Results

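The genes described here encode 7 RNA-binding proteins that shorten the life of messenger RNAs: Zfp36, Zfp36l1 and Zfp36l2 of the ZFP36 family, Zc3h12a and Zc3h12d of the Regnase family, and Rc3h1 and Rc3h2, the Roquin genes. They are 7 of the 54408 genes with a quantified transcript, and all 7 passed the filter on low counts. They were listed by name and chosen by the difference in their counts between NFAT5 KO and WT libraries, which was already known. Their values in that comparison are therefore a description and are no evidence for it.

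The RNA came from P14 CD8 T cells, which carry a transgenic T cell receptor for the gp33 peptide, in 5 libraries called WT and 5 called NFAT5 KO. Cells of both groups were of the C57BL/6 strain and carried floxed Nfat5 alleles (NFAT5flox/flox). The WT cells had no Cre recombinase (CD4-Cre-/-), and the NFAT5 KO cells had 1 Cre transgene (CD4-Cre+/-), whose Cd4 promoter acts from thymic development on, so Cre was present long before the tumour. The cells were activated for 48 hours in culture and transferred into mice with a subcutaneous B16-gp33 melanoma, a mouse line that expresses the peptide. The tumours were taken on day 7 after transfer and CD8 T cells were sorted. Whether CD8 T cells of the host were kept apart in that sort, and whether a library stands for 1 mouse, is not given in the sources used here. The p-values below therefore measure only the spread between these libraries, which may in part be technical. Library names begin with 678 (2 WT and 3 NFAT5 KO) or 679 (3 WT and 2 NFAT5 KO), a number that the labels leave unexplained. In a chi-square comparison of counts over genes, WT library 679_4 differed more from the other WT libraries (72.1 to 102 per degree of freedom) than those did from each other (28.5 to 47.8). NFAT5 KO library 678_5 likewise stood apart in its group (83.7 to 97.5 against 27.9 to 48.8).

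The 3 protein families reach their targets in different ways. ZFP36 proteins bind AU-rich elements in the 3′ untranslated region (UTR) with their zinc fingers and bring in the CCR4-NOT complex, which removes the poly(A) tail. Regnase-1, made from Zc3h12a, is an RNase that cuts stem-loops, and Roquin proteins bind similar stem-loops and also bring in CCR4-NOT. In T cells these factors restrain cytokine and costimulator messages after the antigen receptor has been engaged, and several of them hold target sites in their own messages.

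The longest annotated 3′ UTR of 5 of the 7 genes held the AU-rich core that ZFP36 proteins bind. UAUUUAU, written TATTTAT in the annotated transcripts, was searched on the sense strand of the longest annotated 3′ UTR of each gene (GENCODE M21 transcripts, GRCm38). It was present 3 times each in Zfp36 (774 bases), Zfp36l1 (1835 bases), Zfp36l2 (1822 bases) and Rc3h2 (5331 bases) and 2 times in Rc3h1 (7181 bases). It was absent from those of Zc3h12a (856 bases) and Zc3h12d (2327 bases). The UTRs searched for Zfp36, Zfp36l1, Rc3h1 and Rc3h2 belonged to Zfp36-201, Zfp36l1-201, Rc3h1-202 and Rc3h2-202. These held 41.9%, 46%, 38.3% and 48.3% of their gene's estimated counts over the 10 libraries, and sites in other transcripts were not examined. For Rc3h2-202 the share ran from 25.1% to 81.8% between libraries. Of the 10977 tested genes with an annotated 3′ UTR, 29.7% held UAUUUAU at least once. Each of the 5 genes also held 1 copy of the longer UUAUUUAUU, which overlaps a copy of the shorter word. Of the same 10977 genes, 8.13% held the longer word at least once. Those 5 sites are shown in 30 bases each, 5′ to 3′ on the transcribed strand, with the shorter word in capitals, because ZFP36 proteins are known to bind this word:
Zfp36, chr7:28376950-28376979, minus strand: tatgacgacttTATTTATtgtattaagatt
Zfp36l1, chr12:80108166-80108195, minus strand: aactgttggatTATTTATtttagaaattct
Zfp36l2, chr17:84184913-84184942, minus strand: actatttaactTATTTATtatcttgtgaaa
Rc3h1, chr1:160970043-160970072, plus strand: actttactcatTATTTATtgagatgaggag
Rc3h2, chr2:37373286-37373315, minus strand: caaagacatttTATTTATtttactctgtaa
A match of letters describes the annotated message, and binding was not measured in these libraries.

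Promoter sequences of 250 bases before to 50 bases after the start were found in RefSeq (GRCm38.p6) for 6 of the 7 genes, all but Zfp36l2. They were searched on both strands for the NFAT core TGGAAA, the CArG box bound by serum response factor, the EGR site GCGNGGGCG, the cyclic AMP element TGACGTCA, the AP-1 site TGANTCA and the NF-kB site, and on the gene's own strand for TATAAA. The NFAT core, which NFAT5 also reads, had no match in any of the 6, against 21.4% of 32851 promoters. That of Zfp36 was the only one of the 6 with a CArG box (1.63% of all promoters) or an EGR site (5.55%), and it is shown with both in capitals, the EGR site first, because immediate early genes are known for such elements:
Zfp36, chr7:28379179-28379478, minus strand: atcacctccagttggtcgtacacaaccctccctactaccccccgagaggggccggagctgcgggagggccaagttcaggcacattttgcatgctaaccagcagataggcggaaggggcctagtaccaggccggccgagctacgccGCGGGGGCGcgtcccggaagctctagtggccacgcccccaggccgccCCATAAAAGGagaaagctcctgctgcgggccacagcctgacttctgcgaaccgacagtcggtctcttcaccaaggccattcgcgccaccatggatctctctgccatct
The EGR site began 105 bases and the CArG box 58 bases before the RefSeq start. The GENCODE M21 gene begins further upstream, at 28380253, so the stretch shown lies within that annotated gene. An AP-1 site lay in the promoters of Rc3h1 and Zfp36l1 (7.81% of all promoters), 133 and 129 bases before the start, and Zfp36l1 had TATAAA at 29 bases before it (8.32%). The cyclic AMP element (1.79%) and the NF-kB site (8.46%) had no match in the 6. These are matches of letters within 300 bases and say nothing of whether a factor was bound.

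Zfp36 and Zfp36l2 gave the most abundant of these messages in the tumour-derived T cells, and the Roquin genes the least. On the TPM scale, an abundance corrected for transcript length, Zfp36l2 stood at 150.2 ± 26.2 in WT and 234 ± 60.5 in NFAT5 KO libraries (SD, n = 5 each). Zfp36 stood at 121 ± 29.7 and 213 ± 31.1 TPM, and Zfp36l1 at 69.5 ± 14.3 and 91.5 ± 9.11 TPM. The 3 genes of the ZFP36 family together made up 90.4% of the summed TPM of the 7 in WT and 90.1% in NFAT5 KO. The Regnase genes came next, Zc3h12a at 14.6 ± 3.49 and 29.5 ± 16.2 TPM and Zc3h12d at 13.5 ± 1.52 and 18.7 ± 4.38 TPM. Rc3h1 stood at 6.46 ± 1.53 and 8.38 ± 1.91 TPM, and Rc3h2 at 1.46 ± 0.695 and 2.35 ± 0.674 TPM. Of the 6 neighbouring pairs in this order, 4 kept it in 10 of 10 libraries with no overlap of their ranges in either genotype. Zfp36l2 and Zfp36 overlapped, with Zfp36l2 ahead in 8 of 10 libraries (5 WT and 3 NFAT5 KO), and so did Zc3h12a and Zc3h12d, with Zc3h12a ahead in 7 of 10.

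**Figure D1:**
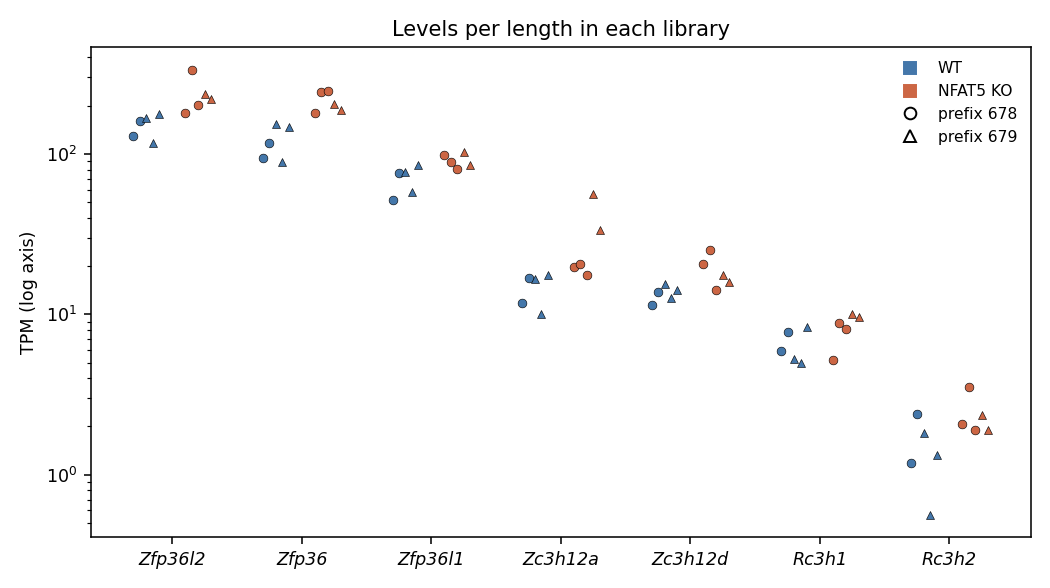
Level per length of the 7 decay factor genes, in TPM on a log axis, with 1 point per library (blue WT, red NFAT5 KO, circles prefix 678, triangles prefix 679). The ZFP36 family stands above both Regnase genes in every library, and Rc3h2 is lowest, at 0.561 to 3.51 TPM.

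Summed by family, the ZFP36 genes went from 340.4 ± 68.5 TPM in WT to 539 ± 79.6 TPM in NFAT5 KO (ratio 1.58), the Regnase genes from 28.1 ± 4.76 to 48.2 ± 15.8 TPM (ratio 1.72) and the Roquin genes from 7.91 ± 1.97 to 10.7 ± 2.15 TPM (ratio 1.36). The WT and NFAT5 KO ranges of the ZFP36 sum did not overlap (263 to 412 against 459 to 668 TPM). Those of the Regnase sum overlapped (22.7 to 32.1 against 31.8 to 73.9 TPM), as did those of the Roquin sum (5.52 to 10.2 against 7.301 to 12.4 TPM). Within the ZFP36 family the ranges of all 3 shares overlapped between the genotypes, and the shift was largest for Zfp36. Zfp36 held 35.2% ± 2.15 of the family's TPM in WT and 39.6% ± 4.15 in NFAT5 KO, Zfp36l1 20.4% ± 1.38 and 17.3% ± 3.15, and Zfp36l2 44.3% ± 1.80 and 43.1% ± 4.89.

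The remaining values of single genes are CPM, each gene's count divided by the scaled total of its library, which suit a comparison of 1 gene between libraries but not of genes with each other. In each case WT libraries are given in the order 678_2, 678_4, 679_3, 679_4 and 679_5, and NFAT5 KO libraries in the order 678_3, 678_5, 678_6, 679_2 and 679_6. Differences are log2 fold changes of NFAT5 KO against WT with their standard error (SE) from the edgeR quasi-likelihood test, with p-values adjusted by the Benjamini-Hochberg method over 13081 genes and a threshold of 0.05. At that threshold 3 of the 7 genes were called higher in NFAT5 KO, 0 lower and 4 were not called. Of the 7, 6 had an unadjusted p under 0.05 by edgeR, as did 3041 of all 13081 genes tested. The DESeq2 Wald test called 5 higher and limma-voom 3. Among all genes tested edgeR called 9.01%, 3.38% higher and 5.63% lower. Over all genes the DESeq2 Wald test called 811 of 12064 higher and 1082 lower, and limma-voom 623 and 917 of 13081. All 7 log2 fold changes were above 0, with a median of 0.61 against 0.02 over all genes tested. Bulk RNA cannot tell a smaller share of cells of one kind from less RNA per cell.

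Zfp36 (ENSMUSG00000044786, GRCm38 chr7:28376784-28380253, minus strand) encodes tristetraprolin, the member of its family induced within minutes of stimulation. It stood at 192, 231, 292, 188 and 303 CPM in the WT libraries. In the NFAT5 KO libraries it stood at 389, 447, 494, 392 and 380.3 CPM. The highest WT library, 679_5, lay below the lowest NFAT5 KO library, 679_6, so the groups did not overlap. Over all genes tested, 10.3% had groups that did not overlap in CPM, 3.92% with all NFAT5 KO libraries higher. On the log2 scale this was a difference of 0.80 (SE 0.14, adjusted p = 0.00401). It was called with any 1 of the 10 libraries left out (0.72 to 0.88). Within prefix 678 it was 1.07 and within prefix 679 it was 0.56, and neither was called.

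Zfp36l2 (ENSMUSG00000045817, GRCm38 chr17:84183931-84187947, minus strand) encodes a relative that is kept on in resting lymphocytes and is known for holding naive and memory T cells quiescent. Its WT values were 283, 337, 342, 269 and 384 CPM. Its NFAT5 KO values were 394, 659, 441, 488 and 485 CPM, with library 678_5 well above the other four. The groups did not overlap, although the highest WT and the lowest NFAT5 KO library were close. The difference was 0.61 on the log2 scale (SE 0.14, adjusted p = 0.0155), and 9 of 10 fits that left out 1 library called it. Without WT library 678_2 it was 0.56 with an adjusted p of 0.0509 by the same edgeR test.

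Zfp36l1 (ENSMUSG00000021127, GRCm38 chr12:80107754-80113013, minus strand) encodes the third T cell member, which works with ZFP36L2 in lymphocyte development. WT libraries had 75.0, 104, 102, 87.3 and 121 CPM and NFAT5 KO libraries 144, 118, 116, 144 and 126 CPM. The highest WT library lay above 2 of the NFAT5 KO libraries, so the groups overlapped. Its difference of 0.41 on the log2 scale (SE 0.13, adjusted p = 0.0668) was not called by the edgeR quasi-likelihood test. It passed with the DESeq2 Wald test (0.40, adjusted p = 0.0264), with only genes that reached 5 CPM in 5 or more libraries (0.40, adjusted p = 0.0479) and without WT library 679_5 (0.48, adjusted p = 0.0358). A long noncoding gene on the opposite strand, Gm26669, overlaps it and held a mean of 52.9 counts beside 3129 for Zfp36l1.

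Zc3h12a (ENSMUSG00000042677, GRCm38 chr4:125118423-125127840, minus strand) encodes Regnase-1, whose message is one of its own targets and whose protein is cut by the protease MALT1 after receptor signals. It stood at 18.5, 29.5, 26.7, 17.2 and 32.1 CPM in WT and 36.7, 36.1, 32.5, 88.5 and 55.4 CPM in NFAT5 KO. The groups did not overlap, but the highest WT and the lowest NFAT5 KO value were nearly level, and NFAT5 KO library 679_2 stood well above the rest. Its log2 difference, 1.01 (SE 0.28, adjusted p = 0.0441), was the largest of the 7 and the least steady of the 3 that were called. Without library 679_2 it was 0.68 (adjusted p = 0.106), and only 3 of 10 edgeR fits with 1 library left out called it.

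Zc3h12a was also the only one of the 7 with an unadjusted p under the threshold for the label prefix, which played no part in choosing the genes. With genotype in the edgeR fit, its level in prefix 679 against 678 differed by 0.56 on the log2 scale (SE 0.24), with an adjusted p of 0.999. The genotype difference was 0.55 within prefix 678 and 1.499 within prefix 679, and the edgeR test of the difference between them gave 0.96 (SE 0.42), with an adjusted p of 0.9998. For the prefix, edgeR called 0% of the 13081 genes, with 425 at an unadjusted p under 0.05, so none of the 7 passed. The other 6 had prefix differences of -0.06 to 0.20.

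Zc3h12d (ENSMUSG00000039981, GRCm38 chr10:7832470-7870396, plus strand) encodes Regnase-4, a relative found mainly in lymphocytes. WT libraries lay tightly at 40.0, 47.2, 50.5, 46.6 and 49.2 CPM. NFAT5 KO libraries had 75.1, 81.0, 49.9, 58.4 and 56.4 CPM, with 2 of the prefix 678 libraries high and the third, 678_6, within the WT range. The edgeR test did not call the difference of 0.46 on the log2 scale (SE 0.14, adjusted p = 0.0624). It passed with the DESeq2 Wald test (0.46, adjusted p = 0.0224) and without library 678_6 (0.52, adjusted p = 0.0455).

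Rc3h1 (ENSMUSG00000040423, GRCm38 chr1:160906418-160974978, plus strand) encodes Roquin-1, first known from the sanroque mouse with too many follicular helper T cells. It stood at 27.8, 34.9, 28.6, 24.9 and 36.9 CPM in WT and 25.7, 37.6, 38.7, 48.0 and 45.6 CPM in NFAT5 KO. NFAT5 KO library 678_3 lay among the lowest WT libraries and the groups overlapped. Its log2 difference was 0.35 (SE 0.18), with an adjusted p of 0.253 by edgeR.

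Rc3h2 (ENSMUSG00000075376, GRCm38 chr2:37370069-37422903, minus strand) encodes Roquin-2, a relative whose loss is partly covered by Roquin-1. WT libraries had 6.01, 12.1, 11.9, 3.98 and 7.97 CPM and NFAT5 KO libraries 11.6, 16.7, 12.1, 14.1 and 13.9 CPM. The WT libraries scattered more than those of NFAT5 KO, and the groups overlapped only at their edges. The log2 fold change of 0.70 (SE 0.29) had an adjusted p of 0.158 by edgeR. No fit with 1 library left out called either Roquin gene.

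**Figure D2:**
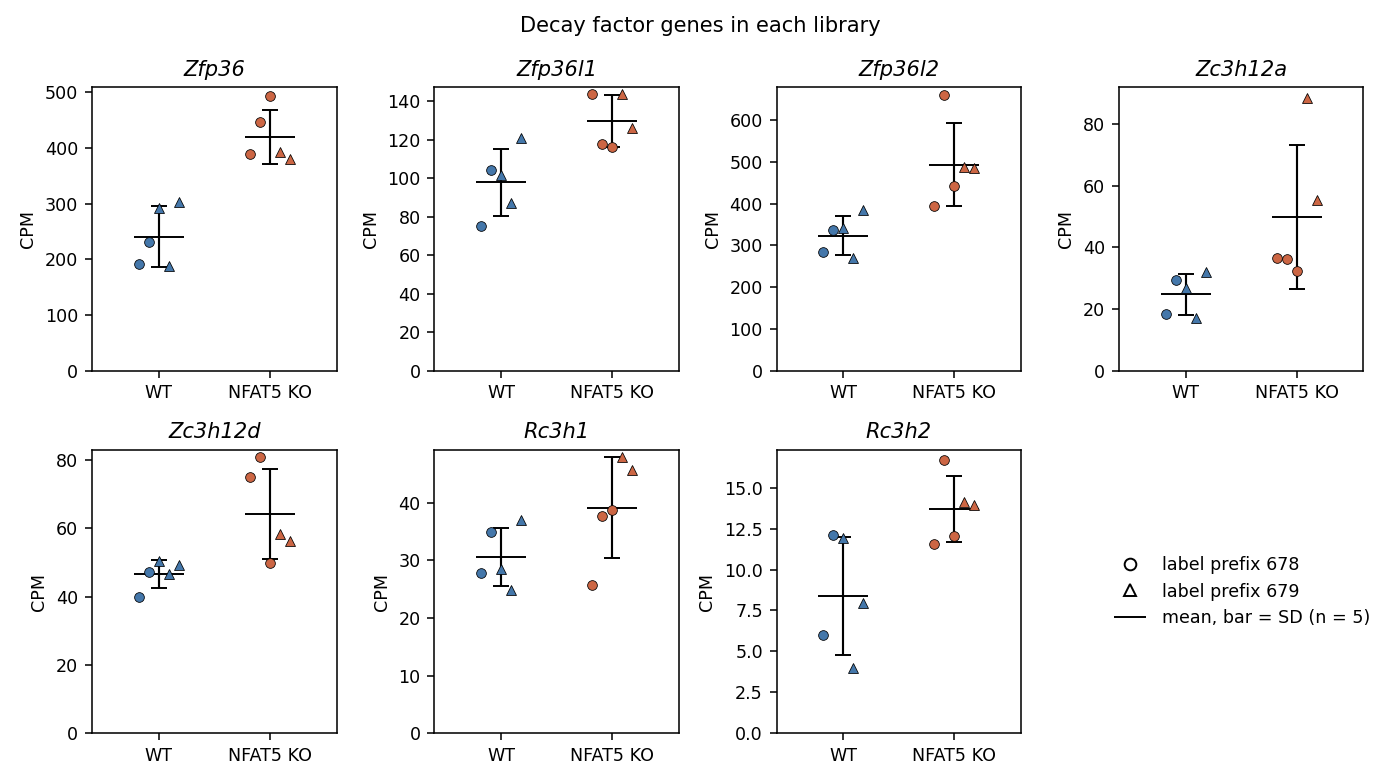
CPM of each of the 7 genes by library and genotype, with the mean and SD over 5 libraries; circles have label prefix 678 and triangles 679, and each panel has its own axis from 0. The groups are separate for Zfp36, Zfp36l2 and Zc3h12a and overlap for the other 4 genes.

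The 7 genes were often low or high in the same libraries. Among the WT libraries, 679_4 was the lowest for 5 of the 7 and 678_2 for the other 2, while 679_5 was the highest for 5. Among the NFAT5 KO libraries, 678_3 and 678_6 were each the lowest for 3, and 678_5 and 679_2 each the highest for 3. Of these, WT 679_4 and NFAT5 KO 678_5 are the libraries that stood apart. Outside the 7, WT 679_4 was also the lowest WT library for some genes, such as Cnot1 (45.2 CPM). It was the highest for others, such as Cnot9 (127 CPM). How often each library was lowest or highest over all genes was not counted, so these counts cannot be called particular to the 7. Without 679_4 the log2 differences were 0.72 for Zfp36 (adjusted p = 0.00751 by edgeR), 0.55 for Zfp36l2 (0.0354) and 0.89 for Zc3h12a, which lost its call (0.0953). Without 678_5 they were 0.76 (0.0103), 0.47 (0.0239) and 1.09 (0.0426), all called. WT library 679_5 was also the least deeply sequenced, with 22444310 estimated counts, and 679_4 held 29111790. The WT libraries 679_4 and 678_2 were also the lowest 2 in the mean of the immediate early genes given below (7.07 and 7.27 on the log2 CPM scale).

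**Figure D3:**
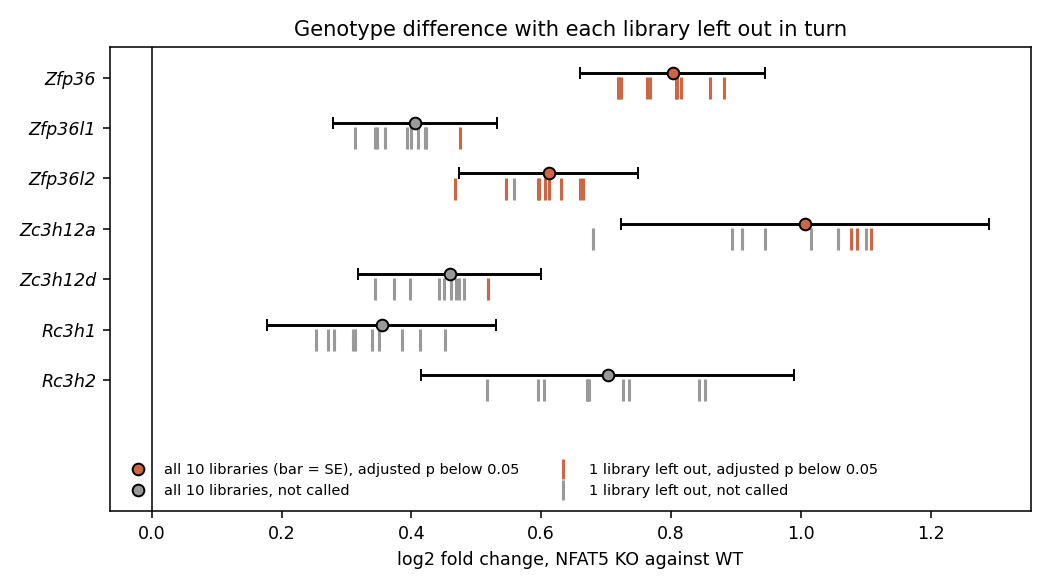
Log2 fold change of NFAT5 KO against WT for each gene with all 10 libraries (circle, bar = SE) and with each library left out in turn (ticks), red where the adjusted p was below 0.05. All 70 left-out values lie above 0. Zfp36 is called in 10 of 10 and Zc3h12a in 3 of 10.

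Most of these genes had 1 or 2 main transcripts, in like shares in both genotypes. Zfp36l2 and Zc3h12d have a single quantified transcript. Zfp36-202 held 57.0% of the estimated counts of Zfp36 in WT and 59.2% in NFAT5 KO, and Zfp36-201 the rest. Zfp36l1-202 held 55.3% and 51.4% and Zfp36l1-201 44.1% and 47.9%. Of the counts of Rc3h1, Rc3h1-201 held 59.8% and 63.4%, and almost all others were from Rc3h1-202, the transcript with the longest 3′ UTR. The retained-intron transcript Zc3h12a-202 held 7.28% of the counts of Zc3h12a in WT and 6.39% in NFAT5 KO. For Rc3h2 the split was too unsteady to compare, since Rc3h2-202 held 55.4% ± 21.6 in WT and 41.3% ± 10.1 in NFAT5 KO (SD, n = 5 each). Salmon divides reads among transcripts of 1 gene by a model, and these shares carry its error.

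The targeted gene Nfat5 did not separate the genotypes at the level of the whole gene. It stood at 18.02, 17.2, 18.3, 9.20 and 14.2 CPM in WT and 12.2, 12.6, 11.6, 26.8 and 11.9 CPM in NFAT5 KO, a log2 difference of -0.04 (SE 0.27, adjusted p = 0.957 by edgeR). A count over the whole gene does not isolate the floxed part, so it does not check the genotype labels. The library labelled NFAT5 KO 679_2 had the highest Nfat5 count of all 10. Without it Zfp36 (0.81, adjusted p = 0.00982) and Zfp36l2 (0.60, adjusted p = 0.0373) were still called by edgeR, and Zc3h12a was not, as given above.

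Most messages of the proteins that carry out decay were not called, which does not show that their levels were equal. In the deadenylation list, 4 of 18 tested genes rose, 1 fell and 13 did not pass (median 0.16). Of all genes tested by edgeR, 3.38% rose and 5.63% fell. Those that rose were the 4 antiproliferative BTG/TOB adaptors, which tie CCR4-NOT to messages, and not the enzymes. Btg1 rose from 612 ± 43.1 to 1085 ± 211 CPM (0.82, adjusted p = 0.00167) and Btg2 from 197 ± 16.5 to 309 ± 43.1 CPM (0.65, adjusted p = 0.00194). Tob1 rose from 51.5 ± 12.9 to 91.6 ± 14.9 CPM (0.83, adjusted p = 0.0102) and Tob2 from 213 ± 39.3 to 296 ± 42.7 CPM (0.47, adjusted p = 0.0478), all by edgeR. Tob2 is named beyond the rule because it completes the set. Both groups of libraries were separate for Btg1, Btg2 and Tob1, and all 3 were called with any 1 library left out. Cnot9, a core subunit of CCR4-NOT, fell from 103 ± 13.6 to 79.6 ± 6.12 CPM (-0.37, adjusted p = 0.0426) and was called in only 2 of 10 fits with a library left out and not with the label prefix as a block (-0.35, adjusted p = 0.0709). The catalytic subunits Cnot6, Cnot6l, Cnot7 and Cnot8, chosen for their role after their values were seen, had log2 fold changes of -0.14, 0.24, 0.28 and 0.07, none called.

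The next steps of decay gave few calls. For scale, 3041 of all 13081 genes tested by edgeR had an unadjusted p under 0.05, and 1179 were called. The DESeq2 Wald test called 811 of 12064 genes higher and 1082 lower, and limma-voom 623 and 917 of 13081. Of 19 decapping and 5′ decay genes, 0 passed by edgeR (median -0.08), 5 had an unadjusted p under 0.05 and the DESeq2 Wald test called 1 lower. The smallest adjusted p was that of Lsm3 (-0.40, adjusted p = 0.0818 by edgeR), a subunit of the LSM ring. Of 15 exosome genes, which decay RNA from the 3′ end, Exosc8 fell (-0.45, adjusted p = 0.0341) and 14 did not pass (median -0.01), and Exosc8 was called in 5 of 10 fits with a library left out. With the label prefix as a block its adjusted p was 0.0526 (-0.42) by edgeR, so the call was lost. Of 10 genes of UPF1 and nonsense-mediated decay, 0 passed by edgeR (median 0.22), 3 had an unadjusted p under 0.05, and 2 were called higher by the DESeq2 Wald test and 1 by limma-voom. Smg5 was closest (0.72, adjusted p = 0.0537). UPF1 is the helicase that Regnase-1 works with. Of 15 other proteins that bind AU-rich or other 3′ UTR elements, 0 passed by edgeR (median 0.08), 4 had an unadjusted p under 0.05, and the DESeq2 Wald test called 2 higher and 1 lower. Closest was Arid5a (0.40, adjusted p = 0.0745), which is known to protect messages from Regnase-1. Of the 6 listed family relatives, Zfp36l3 and Nynrin had 0 counts in all libraries and Zc3h12b and Zc3h12c were too low to test. Of the 2 tested, N4bp1 rose from 23.6 ± 6.83 to 37.8 ± 3.96 CPM (0.68, adjusted p = 0.0409), although in 2 of 10 fits only with a library left out and not with the prefix block (0.66, adjusted p = 0.0684), and Khnyn did not pass (0.27).

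Decay factors are controlled after translation as well, and of 13 genes listed for that control 1 rose and 12 did not pass (median 0.14). An unadjusted p under 0.05 by edgeR was found for 4 of the 13 and for 3041 of all 13081 genes tested. Over all genes tested, 3.38% were called higher. Mapkapk3, a kinase of the p38 pathway related to the kinase that inactivates tristetraprolin, stood at 119, 143, 115, 69.0 and 137 CPM in WT and 206, 219, 226, 176 and 202 CPM in NFAT5 KO. The groups did not overlap and all NFAT5 KO libraries were higher, as for 3.92% of all genes tested. The difference was 0.82 on the log2 scale (SE 0.16, adjusted p = 0.00793 by edgeR).

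Most messages known as targets did not pass, and those that edgeR called were mostly higher. Of 21 listed ZFP36-family targets 18 were tested, of which 3 rose, 1 fell and 14 did not pass (median 0.21). The DESeq2 Wald test called 5 higher and 1 lower, and limma-voom 4 and 1. Over all genes these 2 tests called more than edgeR did, 811 of 12064 and 623 of 13081 higher, against 442 of 13081. Dusp1, a phosphatase of MAP kinases, rose from 291 ± 32.5 to 518 ± 69.1 CPM (0.83, adjusted p = 0.000757). Plk3, a stress kinase, rose from 24.3 ± 4.76 to 43.0 ± 6.19 CPM (0.82, adjusted p = 0.00586), and Myc, the growth regulator, from 230 ± 52.2 to 357 ± 70.7 CPM (0.64, adjusted p = 0.0312). Cdk6, a kinase of the cell cycle, fell from 58.7 ± 5.48 to 40.4 ± 4.27 CPM (-0.54, adjusted p = 0.00937), all by edgeR. Dusp1, Plk3 and Cdk6 were called with any 1 library left out and Myc in 5 of 10 such fits. UAUUUAU occurred 3 times each in the 3′ UTR of Dusp1 and Plk3, 2 times in that of Cdk6 and 0 times in that of Myc. The cytokine genes Tnf (8 copies, 0.24) and Ifng (4 copies, 0.03), chosen because they are the best known targets in T cells, did not pass.

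Of 21 listed Regnase and Roquin targets 16 were tested, with 3 higher, 0 lower and 13 not called (median 0.29), and Zc3h12a itself is one of the 3. The DESeq2 Wald test and limma-voom each called 5 higher and 0 lower. Over all genes tested, edgeR called 3.38% higher, the DESeq2 Wald test 811 of 12064 and limma-voom 623 of 13081. The other two called by edgeR encode atypical IkB proteins. Nfkbiz stood at 136, 126, 143, 119 and 153 CPM in WT and 299.8, 176, 274, 443 and 382 CPM in NFAT5 KO, without overlap (1.22, SE 0.20, adjusted p = 0.00237 by edgeR). Nfkbid rose from 195 ± 89.2 to 393 ± 64.4 CPM (1.01, adjusted p = 0.0235), but WT library 678_4, at 344 CPM, lay above NFAT5 KO library 678_6, at 306 CPM. Nfkbid was called in 6 of 10 fits with a library left out, and Nfkbiz in all 10. The costimulator genes Icos (0.49, adjusted p = 0.105) and Tnfrsf4 (-0.47, adjusted p = 0.142), classic Roquin targets chosen for that reason, did not pass.

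Genes with the AU-rich word in their 3′ UTR were called about as often as other genes. Of 3262 tested genes with at least 1 UAUUUAU, 147 rose and 172 fell, so 9.78% were called, with a median log2 fold change of 0.06. Of 7715 genes without it, 253 rose and 517 fell, so 9.98% were called, with a median of -0.01. By direction, 4.51% rose and 5.27% fell with the word, against 3.28% and 6.70% without it. The median was 0.05, 0.08 and 0.10 for genes with 1, 2 and at least 3 copies, while their median 3′ UTR length went from 2039 to 2663 and 3405 bases, against 996 bases without a copy. Among genes with a 3′ UTR of 500 to 2000 bases, the medians were 0.04 with the word (1233 genes, 11.4% called) and 0.00 without it (3807 genes, 10.7% called). At that length 4.70% rose and 6.73% fell with the word, against 3.91% and 6.83% without it. These medians and shares are a description and carry no test.

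Tristetraprolin is itself encoded by an immediate early gene, and other genes of that class were also higher. Of 15 listed immediate early genes, which do not include the 7, 9 rose, 0 fell and 6 did not pass (median 0.65). Over all genes tested, edgeR called 3.38% higher and 5.63% lower. Dusp1 and Btg2, also counted above, were among the 9. Ppp1r15a rose from 577 ± 71.7 to 789 ± 29.9 CPM (0.45, adjusted p = 0.00606) and Egr1 from 209.9 ± 36.9 to 335 ± 63.3 CPM (0.68, adjusted p = 0.0108 by edgeR). The mean log2 CPM over the 15 was 7.42 ± 0.24 in WT and 8.06 ± 0.06 in NFAT5 KO (SD, n = 5 each), with no overlap (7.07 to 7.62 against 7.98 to 8.12). This list, like the others, was drawn up with earlier results of these data known, so its mean is a description. The part of this shift in the values of the decay factors was not tested.

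**Figure D4:**
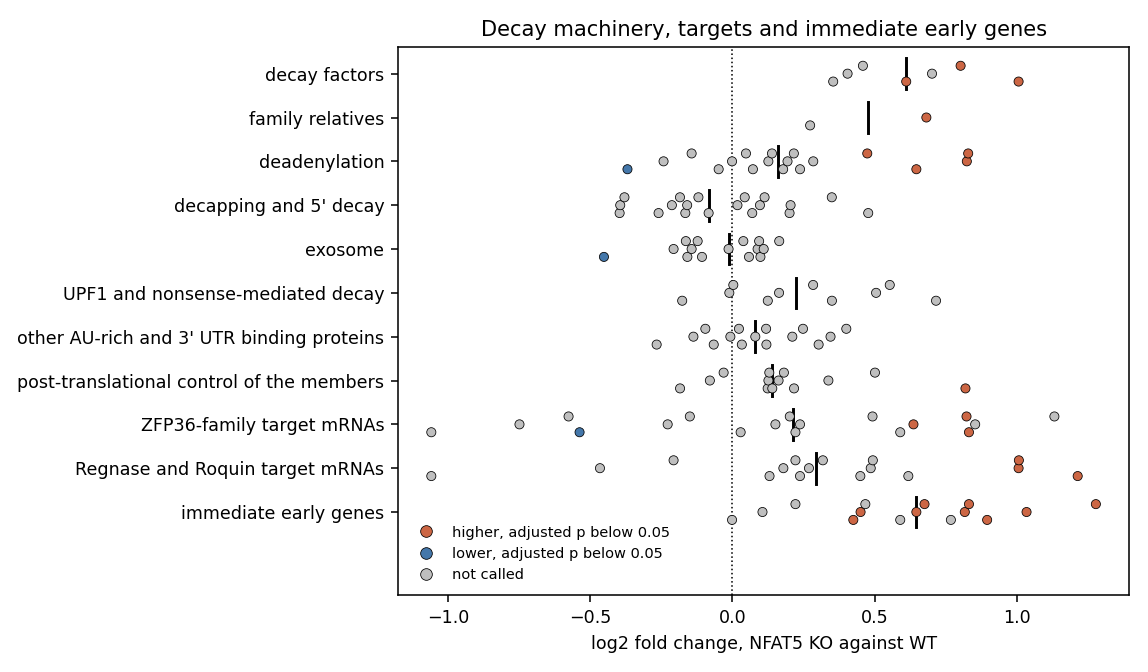
Log2 fold change of NFAT5 KO against WT for the 7 decay factors and the tested genes of 10 companion lists (points; red called higher, blue called lower, grey not called; bars are medians). The decay factors and the immediate early genes have medians of 0.61 and 0.65, and the decapping and exosome lists have medians of -0.08 and -0.01.

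Markers of other cells and of division moved with genotype too. Over all genes tested, edgeR called 3.38% higher and 5.63% lower. The CD8 T cell markers were abundant in all libraries, at a summed 8493 to 9575 CPM in WT and 9353 to 9899 CPM in NFAT5 KO, with 2 of 8 higher and 0 lower (Trac and Cd2). Their mean was higher in NFAT5 KO (10.02 ± 0.08 in WT against 10.16 ± 0.02 on the log2 CPM scale), without overlap. Not all of the 8 went that way: 5 had log2 fold changes above 0. Cd8a (-0.03), Cd8b1 (-0.12) and Cd3g (-0.15) lay below 0 and were not called. All 10 macrophage markers had counts, with sums of 80.6 to 144 CPM in WT and 38.2 to 78.7 CPM in NFAT5 KO, and 2 of 10 fell (Fcer1g and Adgre1). Fcer1g was called with any 1 library left out and Adgre1 in 4 of 10 such fits. Adgre1, which encodes F4/80, was at 0 in 3 NFAT5 KO libraries. With the mean of the macrophage markers as a covariate, edgeR called 0 of the 7 decay factors and 0 of all genes, with 2 of the 7 and 856 of all genes at an unadjusted p under 0.05. The differences were then 0.63 for Zfp36, 0.32 for Zfp36l2 and 1.23 for Zc3h12a, all above 0, with adjusted p of 0.731, 0.901 and 0.731 by edgeR. The marker mean itself separated the genotypes (2.63 ± 0.41 against 0.37 ± 1.05 on the log2 CPM scale, without overlap), so marker and genotype cannot be told apart in that fit. All 10 cell division markers fell (median -2.45), with sums of 1683 to 2694 CPM in WT and 491 to 935 CPM in NFAT5 KO. Their part in the decay factor values was not tested. The B cell marker mean was also lower in NFAT5 KO without overlap, at sums of at most 14.4 CPM, with Pax5 at 0. Of the dendritic cell markers 2 were tested, Xcr1 (1.09, adjusted p = 0.0700 by edgeR) and Ccr7 (0.40, adjusted p = 0.102). Neither passed by edgeR, both passed by the DESeq2 Wald test, and Xcr1 also passed with the prefix block (1.003, adjusted p = 0.0397). Summed over the list, WT libraries held 935 to 1247 CPM and NFAT5 KO libraries 1070 to 1854 CPM. Almost all of this was Ccr7, with a mean of 1130 CPM (WT) and 1494 CPM (NFAT5 KO). Xcr1 had means of 5.04 CPM (WT) and 10.7 CPM (NFAT5 KO). Group means of Flt3, Clec9a and Batf3 were at most 0.252 CPM, and Siglech was at 0. The sums therefore describe Ccr7 and not the list as a whole. The only tested endothelial marker, Pecam1, had -0.42 (adjusted p = 0.106), with Cdh5, Kdr and Tek at 0. Fibroblast markers summed to at most 1.36 CPM, with Col1a2, Dcn and Pdgfra at 0. Melanoma markers summed to at most 4.27 CPM in any library and Sox10 was at 0.

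The genes whose log2 CPM followed each decay factor most closely over the 10 libraries, among 10357 genes whose mean log2 CPM reached 1, were as follows. These correlations are across libraries that share the genotype difference and carry no test. Zfp36 was closest to Pik3c3 (r = 0.964), Trp53inp1 (0.961) and the immediate early gene Ppp1r15a (0.957). For Zfp36l1 they were Pitrm1 (0.963), Epop (0.959) and Dhx37 (0.956), and for Zfp36l2 the IkB family gene Bcl3 (0.985), the kinase gene Jak1 (0.964) and Smad7 (0.958), an inhibitor of TGF-beta signalling. Zc3h12a was closest to Brd2 (0.961), Cdk17 (0.945) and Gnl3 (0.917), and Zc3h12d to Phf23 (0.927), Gm12840 (0.917) and Ago1 (0.917). The closest to Rc3h1 were Nol4l (0.927), Apobr (0.921) and Stau1 (0.913), and to Rc3h2 Plcxd2 (0.979), Akap13 (0.968) and Nub1 (0.963). No gene was among the 3 closest of more than 1 decay factor.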

How the data were processed

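Each library came as 1 Salmon table, in which the authors deposited an estimated count of reads, TPM, length and effective length of 140919 transcripts, per the file headers. The submitters' processing notes name Salmon 0.14.1 and 2 builds, GRCm38.p6 and mm10. What annotation release, strand setting and trimming were used is not given in the sources used for this text. Here 140045 transcripts (99.4%) were matched to GENCODE M21 by identifier without version. For each gene the deposited estimated counts were added up and then rounded to whole numbers. The deposited TPM values, also added up per gene, served for levels per length and transcript shares.

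The 7 genes, the gene lists and the tests were chosen with earlier results of these data known. After filterByExpr (13081 genes left) and TMM scaling, the genotypes were compared over all 10 libraries without covariates. The test was the quasi-likelihood F test of edgeR 4.0.16 under R 4.3.3, robust, with Benjamini-Hochberg adjustment and a threshold of 0.05. SE is the size of the log2 fold change over the square root of F, and a prior count of 2 went into log2 CPM. Libraries held 22444310 to 32001285 estimated counts. All pairs of libraries differed by far more than sampling noise (chi-square per degree of freedom at least 27.9).

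The genes named were the 7, Nfat5, up to 4 called genes of each companion list by smallest p, or 1 where none was called, and the 3 genes with the highest Pearson r with each of the 7. Others are said to be named beyond that rule or for their role. Exact permutation tests of list means were run but are not reported as evidence, since the lists were chosen with results known. The 3′ UTR sites were read from the GENCODE M21 transcripts and promoters from RefSeq (GRCm38.p6). Alternatives were size factors and the Wald test of DESeq2 1.42.0, library size alone, other count filters, a transcript length offset, the label prefix as a block or alone, and macrophage or melanoma marker means as covariates. Quality-weighted limma 3.58.1 voom was also run, and each library was left out in turn.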

Additional observations from a re-analysis of the deposited data

Results flagged for a closer look

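Among 52 groups of 5 libraries examined, 4 held a single library far from the other four by Dixon's criterion, and chance alone gives about 1 in 20 groups. None of the 4 was a decay factor gene. Nfat5 stood at 26.8 CPM in NFAT5 KO library 679_2 and at 11.6 to 12.6 CPM in the other NFAT5 KO libraries. Cnot9 stood at 127 CPM in WT library 679_4 and at 94.8 to 99.7 CPM in the other WT libraries. Arid5a stood at 275 CPM in NFAT5 KO library 678_5, against 174 to 204 CPM in the others of that group. Dusp1 stood at 397 CPM in NFAT5 KO library 678_3, against 526 to 562 CPM in the others.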

How the results depend on the processing

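No paired analysis was possible because the labels do not pair WT with NFAT5 KO libraries by number, and the label prefix as a block changed no call of the 7 genes, but ended those of N4bp1, Cnot9 and Exosc8 and gave one to Xcr1. Over 84 alternative values of the 7 genes, none left the direction, 13 lost and 3 gained a call; with each library left out in turn, 8 of 70 lost and 2 gained one. Within prefix 678 and 679 alone, Zfp36 was 1.07 and 0.56, Zfp36l2 0.68 and 0.55 and Zc3h12a 0.55 and 1.499, none called, and with the macrophage covariate they were 0.63, 0.32 and 1.23. Zc3h12a also lost its call with library size alone (0.97), no filter (0.997), the length offset (0.99) and the melanoma covariate (0.96). Zfp36l1 gained one with the filter of 5 CPM (0.40) and the DESeq2 Wald test (0.40), and Zc3h12d with the latter (0.46). With 1 library left out the ranges were 0.72 to 0.88 for Zfp36, 0.31 to 0.48 for Zfp36l1, 0.47 to 0.66 for Zfp36l2, 0.68 to 1.11 for Zc3h12a, 0.34 to 0.52 for Zc3h12d, 0.25 to 0.45 for Rc3h1 and 0.52 to 0.85 for Rc3h2. Of the 7, edgeR called 3, DESeq2 5 and fits with a library left out 1 to 4. The table had 442 genes higher and 737 lower. These were 0 and 0 in prefix 678 alone and with the macrophage covariate, 71 and 254 in prefix 679 alone, and with a library left out 202 to 490 higher and 494 to 786 lower. The least, 202, came without WT library 678_2. Higher genes numbered 285 with the melanoma covariate and 811 with the DESeq2 Wald test. Arid5a turned to -0.017 and Pecam1 to 0.064 with the macrophage covariate. Pmel, at about 1 CPM, turned to -0.10 in prefix 679 alone and ranged from -0.23 to 0.40 with a library left out. Of genes with the AU-rich word, 11.4% were called at a 3′ UTR of 500 to 2000 bases. The order of the 7 by level was the same with CPM per kilobase, and Zc3h12a-201 held 71.6% of TPM against 93.2% of counts. The fewer libraries apart, the cause of these changes was not tested.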
